A study of Mus musculus with 4 samples.

Results

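Enzymes that break down amino acids and inositol, and the creatine-forming pair that draws on glycine and arginine, were followed as a group of 46 genes in embryonic mouse kidney. A gene was measured where the platform annotation of an Affymetrix mouse expression array gave a probe set that gene's symbol and no other, and its probe set with the highest mean over the arrays was used. In this way 45 of the 46 were measured, out of 18193 genes with such a probe set, and Amt had none. The kidneys came from C57BL/6 embryos at embryonic day 15, labelled female. Their dams, also C57BL/6 and 8 weeks old when divided between diets, ate an iron-deficient diet of 2 to 6 ppm iron or a control diet of 220 ppm iron, for 3 weeks before gestation and through pregnancy. Each diet has 2 pools of 16 kidneys with 1 array per pool, and nothing in the labels says that pools on 1 diet are from different litters, so p-values measure only the spread between pools, which may be technical.

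In the adult kidney these enzymes are known mostly from the proximal tubule, where filtered amino acids and sugars are taken back up and then passed to the blood or degraded. Amino acid breakdown removes the amino group, by transamination or oxidation, and then feeds the carbon skeleton into the citric acid cycle, with much of the work done in mitochondria and peroxisomes. Miox, which opens the inositol ring, the ring-cleaving Hgd and Haao, and Hpd carry iron in the active site, whereas others use a flavin, pyridoxal phosphate or biotin. In the embryonic kidney, nephrons are still being formed from progenitor cells.

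Signals below are the deposited array intensities, on a linear scale. The array background was taken as the highest of 27 control probe sets for bacterial transcripts, which read 14.4 and 13.3 in iron-deficient pools 1 and 2 and 8.5 and 8.2 in control pools 1 and 2. Iron-deficient pool 1 differed most from the other arrays. Across tested probe sets its log2 signals correlated with the other arrays at 0.883 to 0.913, where the control pools reached 0.978. Iron-deficient pool 2 reached 0.970 with a control pool, and so was closer to a control pool than to iron-deficient pool 1. The 18S ribosomal RNA control (5′ probe set) read 2144.5 in iron-deficient pool 1, against 243 in iron-deficient pool 2 and 291.9 and 289.4 in the control pools. The Y-linked gene Eif2s3y read 253.6 and 20.8 in the iron-deficient pools and 594.5 and 600 in the control pools, although all samples are labelled female. The part of these differences in the results was not tested. The enzymes' values are therefore given by pool where they are described in detail, and a pool's difference from the control mean is also the value of the comparison without the other iron-deficient pool.

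Most of the enzymes had lower signals in the iron-deficient pools. Of the 45 measured genes, 29 (64.4%) had both iron-deficient signals under both control signals, where 23.2% of all 18193 genes did, and 3 (6.67%) were higher in both, against 14.3% of all genes. The median log2 difference, iron-deficient minus control, was -0.61 over the 45 genes and -0.11 over all genes. Only Bcat1 was higher in both with signals above background, since Hpd and Tat, the other 2, were below background in all 4 pools. Fewer cells of a type and less RNA per cell cannot be told apart in such pools.

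None of the enzymes passed limma's test over all 27022 probe sets bright enough to be tested, in which 0% were called at an adjusted p of 0.05. The test covered 36 of the 45 genes. At an unadjusted limma p under 0.05 lay 12 of the 36, all of them lower, against 2.81% of tested probe sets that were lower and 1.14% that were higher. Without iron-deficient pool 1, 11 of the 36 lay there as lower, against 6.55% of tested probe sets. A filter on mean signal keeps genes that are bright in a single group, and 6 of the 36 passed it without both iron-deficient pools above background. These 6, Hgd, Miox, Agxt2, Bhmt2, Prodh2 and Upb1, are all among the 12 that were lower, so that count rests in part on the filter. With no filter, 10 of the 45 lay there as lower (22.2%, against 2.44% of all 45037 probe sets) and 1, Hpd, as higher, from signals below background. Among tested probe sets 25% had both iron-deficient signals under both controls and 11.8% had both above, and these counts were 28 and 1 for the 36 enzymes. After median centring of the arrays the shares of probe sets were 14.9% and 21.7%, and the counts of enzymes 23 and 2. With 1 probe set per gene, where 0.0923% of 12997 genes were called lower at an adjusted p of 0.05, Hgd was the only one of these enzymes that fell past the threshold (limma adjusted p = 0.0328). Under the other alternatives that tested it, Hgd had a limma adjusted p of up to 0.668, with no filter. It was 2.07e-10 with the pool number as a block, but there p followed the size of the difference alone and not a gene's own spread. Of 8 further probe sets of these enzymes that were tested, 7 had a negative difference, where the median of all tested probe sets was also negative (-0.10). They measure the same genes on the same arrays.

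**Figure D1:**
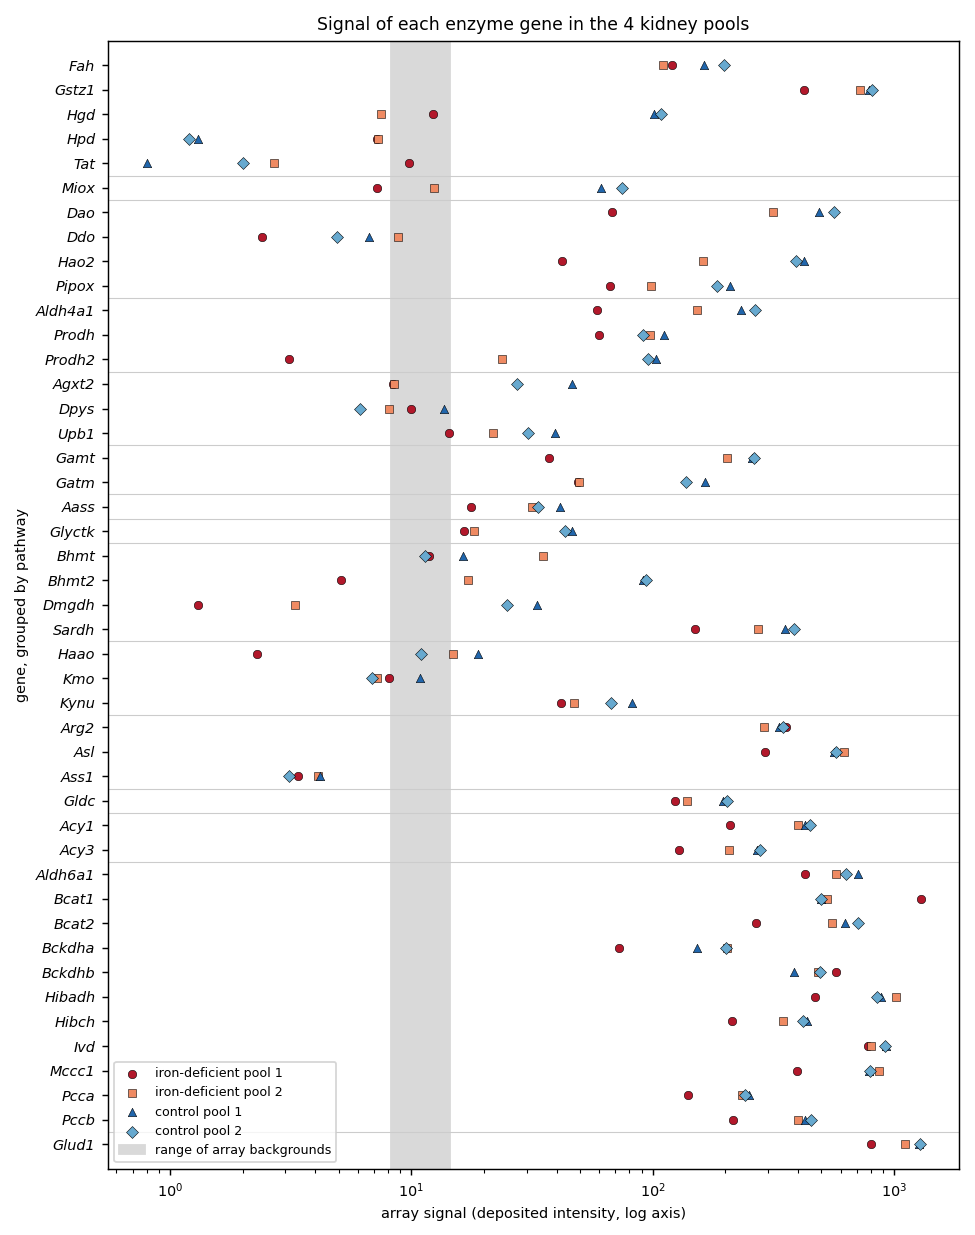
Array signal of each of the 45 measured enzyme genes (rows, grouped by pathway) in iron-deficient pools 1 and 2 and control pools 1 and 2, on a log axis of deposited intensity; the grey band spans the 4 array backgrounds, from 8.2 to 14.4. The signals of Miox, Hgd and Agxt2 in both iron-deficient pools lie within or below the band, while the branched-chain enzymes at the bottom lie far to the right of it in all pools.

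The tyrosine pathway and inositol breakdown held the enzymes with the smallest p. Hgd, homogentisate 1,2-dioxygenase, an iron-dependent enzyme that opens the aromatic ring in the middle of tyrosine breakdown, had signals of 12.3 and 7.5 in iron-deficient pools 1 and 2, against 100.9 and 108.6 in control pools 1 and 2. Neither iron-deficient signal was above background and the groups were far apart. Hgd was thus at least 7.56-fold lower, and the fitted difference was -3.45 ± 0.38 (SE of the log2 difference, as in all values below; limma adjusted p = 0.451 over all probe sets). Its other probe set was below background in all pools. Miox, myo-inositol oxygenase, the iron-containing enzyme that commits inositol to breakdown, read 7.2 and 12.4 in iron-deficient pools and 61.1 and 74.8 in control pools. As with Hgd, both iron-deficient signals were below background, which makes Miox at least 4.88-fold lower (fitted difference -2.84 ± 0.40, limma adjusted p = 0.465).

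The remaining steps of tyrosine breakdown differed less or were not measurable. Fah, the last enzyme, which splits fumarylacetoacetate, read 120.6 and 110.6 in iron-deficient pools and 162.8 and 197.7 in control pools, with a difference of -0.64 ± 0.32. Gstz1, the isomerase between Hgd and Fah, read 423.3 and 722.1 against 786.8 and 807.5 in control pools, so that iron-deficient pool 1 was clearly low and pool 2 lay just below the controls (-0.53 ± 0.39). Both genes were lower in both iron-deficient pools. Tat, the aminotransferase that starts the pathway, read 9.8 and 2.7 in iron-deficient pools and 0.8 and 2 in control pools, and Hpd, the dioxygenase before Hgd, 7.2 and 7.3 against 1.3 and 1.2. No signal of Tat or Hpd was above its array's background, and no fold is given for them. Of the 4 iron enzymes, Hgd and Miox were tested, with the values above. Haao, the iron-dependent dioxygenase of the kynurenine pathway, read 2.3 and 14.9 in iron-deficient pools and 18.9 and 11 in control pools, and the groups overlapped.

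The bases before the starts of Miox and Hgd are shown because these genes had the smallest enzyme p over all tested probe sets. For Miox that rank did not hold with signals set to background or with quantile normalization. The bases come from RefSeq promoter windows of GRCm38.p6, cut at the start of the gene, and 42 of the 46 genes had such a window. Each was searched on both strands for GTTAAT (a core of sites for the tubule factors of the HNF1 family), CAAAGTCCA (HNF4 factors) and ACGTG (the core of hypoxia response elements, which also lies within E-boxes). Capitals mark matches. Miox, chr15:89334223-89334472, plus strand, holds 1 GTTAAT match, on the opposite strand and starting 142 bases before the gene's start. Hgd, chr16:37579903-37580152, plus strand, holds none of the 3 motifs.
Miox: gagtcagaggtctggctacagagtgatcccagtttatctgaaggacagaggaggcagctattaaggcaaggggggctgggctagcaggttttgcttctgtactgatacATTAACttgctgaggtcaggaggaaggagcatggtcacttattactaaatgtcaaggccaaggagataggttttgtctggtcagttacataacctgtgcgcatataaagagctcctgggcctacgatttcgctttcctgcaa
Hgd: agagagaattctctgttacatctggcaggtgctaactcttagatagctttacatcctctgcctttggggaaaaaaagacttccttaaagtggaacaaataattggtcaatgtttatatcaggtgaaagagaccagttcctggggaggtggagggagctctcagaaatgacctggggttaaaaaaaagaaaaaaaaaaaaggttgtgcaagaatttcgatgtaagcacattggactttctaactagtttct
Over the whole group, 6 of 42 genes (Bckdhb, Glyctk, Haao, Hao2, Miox and Prodh2) held GTTAAT within 250 bases, or 14.3%, against 7.49% of the 27025 genes with a window. CAAAGTCCA was found in 1 gene, Agxt2 (2.38%, against 0.451%), and ACGTG in 8 (19%, against 18.5%). A match is a description of letters and does not mark a bound site.

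Peroxisomal oxidases formed another set with large differences. Hao2, a hydroxyacid oxidase, read 42.2 and 162 in iron-deficient pools and 423.6 and 393.8 in control pools (-2.30 ± 0.66). Dao, D-amino acid oxidase, which clears D-serine and other D-amino acids, read 67.7 and 313.7 against 490 and 564.5 in control pools (-1.85 ± 0.74). Pipox, which oxidises pipecolate and sarcosine, read 66.4 and 98.5 against 209.7 and 184.8 in control pools (-1.28 ± 0.36). In all 3 the iron-deficient pools lay below both control pools and pool 1 was the lower. Their unadjusted limma p were 0.0152, 0.0495 and 0.0133. Relative to the control mean, Dao differed by -2.96 in iron-deficient pool 1 and by -0.75 in pool 2, Hao2 by -3.27 and -1.33, and Pipox by -1.57 and -1.0. Ddo, the oxidase of D-aspartate, was below background in every pool, at 2.4 and 8.8 in iron-deficient and 6.7 and 4.9 in control pools.

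Of the 3 proline and hydroxyproline enzymes, Prodh2 and Aldh4a1 had both iron-deficient signals under both controls. Prodh2, which starts hydroxyproline breakdown, read 3.1 and 23.8 in iron-deficient pools, against 103.3 and 96 in control pools. In iron-deficient pool 1 it was below background, and with that signal set to background the difference was -2.43, where the fitted value was -3.54 ± 0.94. Prodh, the related enzyme of proline itself, read 59.8 and 97.4 in iron-deficient and 111.5 and 90.8 in control pools, so pool 2 lay between the controls (-0.40 ± 0.38). Whether the paralogs differ from each other was not tested. Aldh4a1, the mitochondrial dehydrogenase that acts after both, read 58.8 and 153.1 against 231.7 and 265 in control pools (-1.38 ± 0.52), below both controls in both pools.

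The betaine and methyl group enzymes lie side by side in the genome. Bhmt, Bhmt2 and Dmgdh are consecutive protein-coding genes on chromosome 13, with 0 protein-coding genes between neighbours. Bhmt2, which methylates homocysteine from S-methylmethionine, read 5.1 and 17.2 in iron-deficient pools and 90.7 and 94.1 in control pools (-3.30 ± 0.61, or -2.55 with the pool 1 signal set to background). A further Bhmt2 probe set, of a type that can match related transcripts, read 6.8 and 17.3 against 87.9 and 71.3 in control pools. Dmgdh, the mitochondrial dimethylglycine dehydrogenase, read 1.3 and 3.3 in iron-deficient pools, both below background, and 33 and 24.8 in control pools, which is at least 2.07-fold lower. It was too dim for the test. Bhmt, the betaine-dependent enzyme known chiefly from liver, went the other way in iron-deficient pool 2, with 11.8 and 35.2 in iron-deficient pools against 16.3 and 11.4 in control pools. Hepatocyte marker genes were also highest in that pool: 12 of 14 measured markers exceeded both control pools there, where 6595 of all 18193 genes did. The summed signal of these markers was 385.5 and 3372.3 in the iron-deficient pools and 1802.4 and 1621.7 in the control pools, and none was at 0. Their part in the Bhmt signal was not tested.

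Bhmt2 and Dmgdh are transcribed away from each other, and the RefSeq starts leave 133 bases between them. That stretch is shown because both genes that it separates were above background in both control pools and lower in both iron-deficient pools. It is chr13:93674303-93674435 of GRCm38.p6, written on the plus strand so that Dmgdh starts after its last base, and it holds no match to the 3 motifs.
Bhmt2 and Dmgdh: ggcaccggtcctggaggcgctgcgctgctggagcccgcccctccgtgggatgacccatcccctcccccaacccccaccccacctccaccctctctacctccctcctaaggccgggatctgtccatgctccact
Sardh, the sarcosine dehydrogenase that follows Dmgdh in choline breakdown, read 150 and 272.1 in iron-deficient pools and 353.4 and 384.1 in control pools (-0.87 ± 0.40). Its dimmer probe set had the same order, with a difference of -1.10 ± 0.52.

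Creatine synthesis showed a difference of equal size in both iron-deficient pools at its first step. Gatm, the amidinotransferase that makes guanidinoacetate and limits the pathway, read 49 and 49.3 in iron-deficient pools and 164.2 and 137.4 in control pools. The difference was -1.61 ± 0.32 (limma adjusted p = 0.767), and relative to the control mean it was -1.62 in pool 1 and -1.61 in pool 2. Gamt, the methyltransferase that completes creatine, read 37.3 and 203.5 against 257.3 and 263.2 in control pools, so the gap to the controls was large in pool 1 (-2.80) and small in pool 2 (-0.35). The bases before Gatm, chr2:122611278-122611527, minus strand, are shown because its p was among the smallest of the tested enzymes with 1 promoter window. They hold 1 ACGTG match, in capitals, starting 94 bases before the gene's start.
Gatm: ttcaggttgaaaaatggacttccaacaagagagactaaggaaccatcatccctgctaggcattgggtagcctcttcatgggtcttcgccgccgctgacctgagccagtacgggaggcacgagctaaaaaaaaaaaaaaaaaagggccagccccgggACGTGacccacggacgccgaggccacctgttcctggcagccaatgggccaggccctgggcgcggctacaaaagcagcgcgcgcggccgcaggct

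Enzymes at the end of pyrimidine breakdown and of glycerate were lower in both pools as well. Agxt2, a mitochondrial aminotransferase for beta-aminoisobutyrate and dimethylarginines, read 8.4 and 8.5 in iron-deficient pools, both below background, and 46.5 and 27.4 in control pools, and was at least 2.58-fold lower (fitted difference -2.08 ± 0.38). Upb1, beta-ureidopropionase, read 14.3 and 21.7 against 39.3 and 30.3 in control pools (-0.97 ± 0.38), with pool 1 just below background. Glyctk, glycerate kinase, read 16.5 and 18.2 against 46.2 and 43.1 in control pools (-1.36 ± 0.31). A dimmer Glyctk probe set read 10.3 and 8 in iron-deficient and 29.6 and 31.9 in control pools, with the same order. Dpys, the dihydropyrimidinase that acts before Upb1, was above background in control pool 1 alone, with 10 and 8.1 in iron-deficient and 13.7 and 6.1 in control pools.

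**Figure D2:**
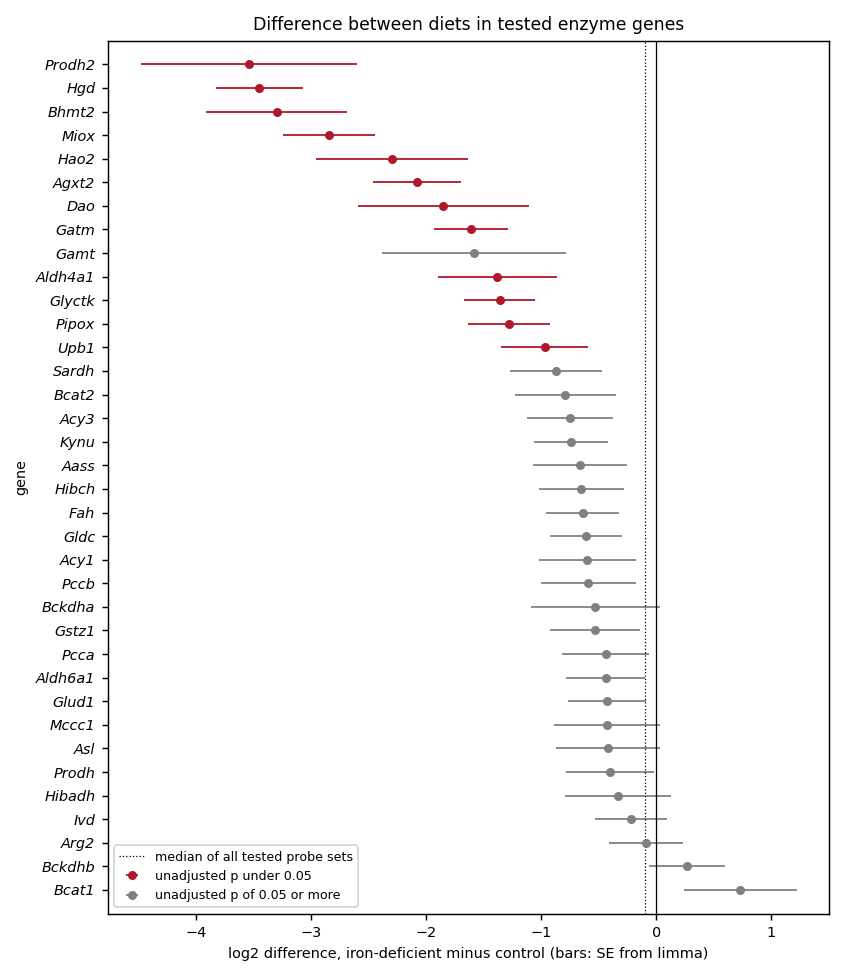
Difference between diets (log2, iron-deficient minus control) of the 36 tested enzyme genes, with the standard error from limma as bars; red marks an unadjusted p under 0.05 and the dotted line is the median of all tested probe sets (-0.10). The 12 red genes run from -3.54 (Prodh2) to -0.97 (Upb1), and the single bar that lies wholly above 0 is that of Bcat1 (0.73 ± 0.49).

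Branched-chain amino acid breakdown, a mitochondrial route present in most tissues, differed in iron-deficient pool 1 and little in pool 2. All 11 of its genes were above background in every pool. At an unadjusted limma p under 0.05 lay 0 of 11, where 2.81% of tested probe sets were lower and 1.14% higher, so this count does not set the route apart. Both iron-deficient signals lay under both controls in 6 of 11 and above both in 1, against 25% and 11.8% of tested probe sets. The median log2 difference from the control mean was -0.89 in pool 1 and -0.06 in pool 2, against -0.31 and 0 over all 12997 tested genes. Bckdha, a subunit of the branched-chain ketoacid dehydrogenase that commits these amino acids to breakdown, read 72.4 and 202.9 in iron-deficient pools and 151.9 and 201.2 in control pools (-0.53 ± 0.56), so that the iron-deficient pools lay on either side of the controls. Its partner subunit Bckdhb read 574.2 and 483.6 against 385.1 and 493.4 in control pools, with overlap and a positive difference of 0.27 ± 0.33. Whether the subunits differ from each other was not tested.

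Of the other enzymes of this route, Mccc1, the biotin-bearing subunit of methylcrotonyl-CoA carboxylase, read 394.3 and 869.4 in iron-deficient pools and 786.8 and 794.6 in control pools, and Hibadh, a dehydrogenase of valine breakdown, read 468.3 and 1019.5 against 884.4 and 847.9 in control pools. In both genes pool 1 was the lowest and pool 2 the highest of the 4 pools, although another Mccc1 probe set gave 357.5 and 236.7 against 246.1 and 263.4 in control pools and the reverse order, and another Hibadh probe set gave 271.7 and 473.5 against 513.2 and 536 in control pools, with both iron-deficient pools the lower. Pcca and Pccb, the subunits of propionyl-CoA carboxylase, differed by -0.44 ± 0.38 and -0.59 ± 0.41. Hibch and Aldh6a1, which act on valine intermediates, differed by -0.65 ± 0.37 and -0.44 ± 0.34, and Ivd, the leucine-pathway flavoenzyme, by -0.22 ± 0.31. In these 5 genes both iron-deficient signals lay under both control signals, although a dimmer Ivd probe set had pool 2 above the controls. From the control mean, pools 1 and 2 differed by -0.81 and -0.06 for Pcca, -1.03 and -0.14 for Pccb, -1.0 and -0.30 for Hibch, -0.65 and -0.22 for Aldh6a1, and -0.24 and -0.20 for Ivd. Only for Ivd were the pools about equally far from the controls.

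The aminotransferases that open this route had opposite signs. Bcat1, the cytosolic form, read 1289 in iron-deficient pool 1 and 529.7 in pool 2, against 497 and 496 in control pools (0.73 ± 0.49). Its signal in pool 1 was far above the other 3 pools. Bcat2, the mitochondrial form, read 267.9 and 550.5 in iron-deficient pools and 624.5 and 708.6 in control pools (-0.79 ± 0.44), lower in both. Without iron-deficient pool 1 the differences were 0.09 for Bcat1 and -0.27 for Bcat2, and neither passed an unadjusted limma p of 0.05 with all pools. A test between the paralogs was not made.

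Enzymes of nitrogen, glycine and lysine handling had small differences. Glud1, glutamate dehydrogenase, which links amino acids to the citric acid cycle, read 803.5 and 1109.3 in iron-deficient pools and 1263 and 1282.3 in control pools (-0.43 ± 0.34), and its other tested probe set differed by -0.64 ± 0.36. Gldc, the decarboxylase of the glycine cleavage system, read 123.2 and 138.5 against 195.7 and 202.4 in control pools (-0.61 ± 0.31). Aass, which starts lysine breakdown, read 17.6 and 31.5 against 41.1 and 33.6 in control pools (-0.66 ± 0.41). All 3 were lower in both pools, and for Aass pool 2 lay close to the lower control. The aminoacylases Acy1 and Acy3, which free amino acids from acyl groups, differed by -0.60 ± 0.42 and -0.75 ± 0.37, with pool 2 only -0.13 and -0.41 from the control mean.

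The 3 arginine enzymes had small differences or signals at background. Arg2, the mitochondrial arginase, read 357.8 and 287.7 in iron-deficient pools and 334.3 and 348 in control pools (-0.09 ± 0.32), and the sign of this difference turned after quantile normalization and after median centring (0.09 and 0.11). Its dimmer probe set was lower in both pools, by -0.26 ± 0.31. Asl, argininosuccinate lyase, read 292.7 and 617.4 against 563.3 and 575.4 in control pools (-0.42 ± 0.45). In Arg2 and Asl 1 iron-deficient pool lay above both controls and the other below. The only probe set named for Ass1, argininosuccinate synthase, was below background in all pools, at 3.4 and 4.1 in iron-deficient and 4.2 and 3.1 in control pools. In the kynurenine pathway of tryptophan, Kynu, kynureninase, read 41.8 and 47 in iron-deficient pools and 82 and 66.9 in control pools (-0.74 ± 0.32), lower in both. Kmo, the hydroxylase before it, read 8.1 and 7.2 against 10.9 and 6.9 in control pools, and was above background in control pool 1 alone.

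Grouped by cofactor, the flavin enzymes Prodh2, Hao2, Dao and Pipox lay at an unadjusted limma p under 0.05, all lower, where 2.81% of tested probe sets lay. Prodh, Sardh and Ivd, also flavin enzymes, did not, and Ddo, Dmgdh and Kmo were too dim to be tested. Of 5 tested pyridoxal phosphate enzymes 1 lay there, Agxt2, against the same 2.81%, and Bcat1 was the positive member. Agxt2 passed the filter through its control signals alone. Prodh2 passed it with iron-deficient pool 1 below background, so both calls rest in part on the filter. Mccc1, Pcca and Pccb, subunits of biotin-dependent carboxylases, had a median of -0.44, where all tested genes had -0.14. Of the iron enzymes, Hgd and Miox passed the filter through their control signals alone and have the bounds given above, while Haao and Hpd were too dim. Differences between cofactor groups were not tested.

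The iron-deficient pools differed from each other in how many enzymes were low, as they did over all genes. In pool 1, 36 of 45 genes (80%) were below both control pools, where 51.9% of all genes were, and in pool 2 these shares were 30 of 45 (66.7%) and 37.5%. The difference from the control mean was more negative in pool 1 than in pool 2 for 37 of the 45. That count includes genes below background in both iron-deficient pools, whose order has no meaning, and it was not made over all genes. Over the 36 tested enzymes the median difference was -1.07 in pool 1 and -0.33 in pool 2. Over all 12997 tested genes it was -0.31 and 0, so pool 1 was the lower there too. Differences of 1 log2 unit or more below the control mean in both pools were seen for Hgd, Miox, Prodh2, Bhmt2, Agxt2, Gatm, Hao2, Glyctk and, at the edge, Pipox (-1.57 and -1.0). For Gatm and Glyctk, both above background, the pools lay close together, and the signals of Hgd, Miox and Agxt2 in these pools were below background and have no order.

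**Figure D3:**
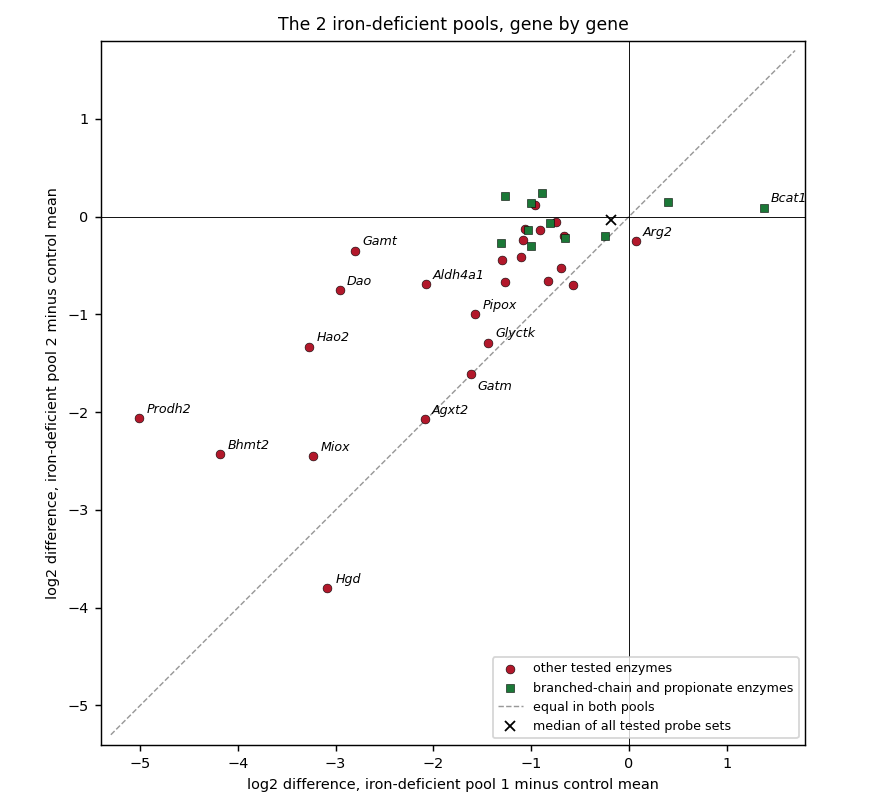
Log2 difference from the control mean in iron-deficient pool 1 (horizontal) and iron-deficient pool 2 (vertical) for the 36 tested enzymes; green squares are branched-chain and propionate enzymes, the dashed line marks equal differences and the cross is the median of all tested probe sets (-0.18 and -0.03). The squares spread along the horizontal axis near 0 on the vertical, whereas Hgd, Miox, Bhmt2, Prodh2, Agxt2 and Gatm are far below 0 on both.

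Other genes of these pathways had a smaller median difference. Of 81 listed, 67 were measured, and both iron-deficient signals lay under both controls in 26 (38.8%) and above both in 8, against 23.2% and 14.3% of all genes. At an unadjusted limma p under 0.05 lay 6 of 54 tested (11.1%), all lower, where 2.81% of tested probe sets were lower. None passed at an adjusted p of 0.05. The median difference was -0.58 in pool 1 and -0.04 in pool 2. The 4 with the smallest p are named here. Aadat, the aminoadipate and kynurenine aminotransferase, read 43.3 and 90.3 in iron-deficient pools and 467.3 and 554.3 in control pools (-3.02 ± 0.45). Hoga1, the aldolase that ends hydroxyproline breakdown after Prodh2 and Aldh4a1, differed by -1.69 ± 0.41 (-2.06 in pool 1 and -1.31 in pool 2). Hykk, hydroxylysine kinase, differed by -1.35 ± 0.34 (-1.13 in pool 1 and -1.57 in pool 2). Qprt, which uses the quinolinate formed downstream of Haao, differed by -1.29 ± 0.41 (-1.73 in pool 1 and -0.84 in pool 2).

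Markers of the proximal tubule, and of other nephron segments, were lower in the same pools. Of 20 measured proximal tubule markers 19 (95%) had both iron-deficient signals under both controls, 14 of 19 tested lay at an unadjusted limma p under 0.05, all lower, and none was at 0. Of all genes, 23.2% were lower in both and 14.3% higher in both, and 2.81% of tested probe sets were lower at that p. The summed signal of the proximal tubule markers was 2336.8 and 3937.8 in the iron-deficient pools, against 8923.3 and 8755.3 in the control pools. As in the enzymes, pool 1 was the lower of the iron-deficient pools, with medians of -2.44 and -1.27 from the control mean. Loop of Henle and distal tubule markers summed to 269.8 and 500.6 in iron-deficient pools and 1476.4 and 1275.5 in control pools, with 5 of 6 lower in both and a median of -2.14 over 4 tested. Erythroid markers were mostly higher, with sums of 2765.9 and 2304.1 in iron-deficient pools and 1117.1 and 1229.8 in control pools, 6 of 8 higher in both and a median of 1.96 over 7 tested. The erythroid marker Alas2 was lower in both (-1.30 ± 0.47). Markers of nephron progenitors, which form the tubules, summed to 2318.5 and 3323.2 in iron-deficient pools and 3622.3 and 3655.3 in control pools, with 3 of 8 lower and 2 of 8 higher in both. Podocyte markers had a median of -0.43 over 4 tested, with 2 lower and 1 higher in both. Ureteric bud and collecting duct markers had a median of -0.29 over 8 tested, with 5 lower and 0 higher in both. The part of these cell types in the enzyme signals was not tested.

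**Figure D4:**
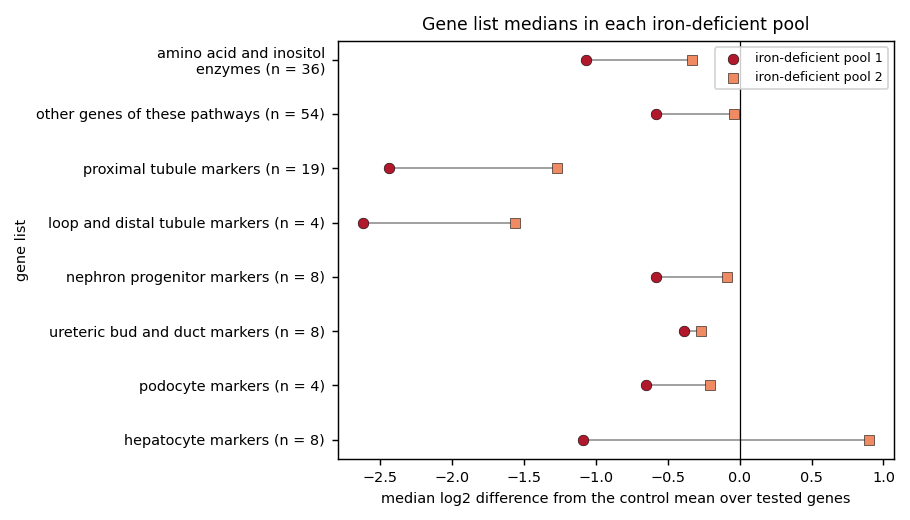
Median log2 difference from the control mean over the tested genes of each list, in iron-deficient pool 1 (circles) and iron-deficient pool 2 (squares), with the number of tested genes after each name. The enzymes lie at -1.07 and -0.33, the proximal tubule markers further left at -2.44 and -1.27, and the hepatocyte markers on both sides of 0, at -1.09 and 0.90.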

How the data were processed

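RNA from 4 pools of embryonic kidneys was labelled with biotin and hybridised to 1 Affymetrix array each, per the labels' protocols. Each deposited value is an intensity of 1 probe set, linear and up to 13762.6, each array having a mean of 250.0 after 2% trimming at both ends. The submitters' processing notes name RMA, which such values do not show, and the summarising software was not given in the sources used here.

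Zeros were set to 0.1 and log2 was taken. The 64 control probe sets and the lowest 40% of the other 45037 by mean log2 signal (limit 17.3) were left out. Diets were compared with limma 3.58.1 in R 4.3.3 (lmFit, eBayes, diet as the only term, two-sided, 2 residual and 3.49 prior degrees of freedom), and p-values were adjusted by Benjamini-Hochberg for the 27022 probe sets. This fit was tested on simulated data. "At least" folds set the geometric mean of the control signals against that of the higher of signal and background in the iron-deficient pools. Per-pool values are given for genes with an unadjusted p under 0.05, separated pools and a difference of 1 or more, both pools of a diet at background, or a first enzyme of a route, and for others named to complete a route. The 46 genes, the lists and this rule were chosen with earlier results of these data known. Every group has 2 arrays, which limits the precision. Alternatives were other filters, scalings, offsets, variance models, a pool-number block, pools left out and other choices of probe set.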

Additional observations from a re-analysis of the deposited data

How the results depend on the processing

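No adjusted count of higher enzymes changed from 0 under any alternative, and the median difference of the tested enzymes stayed between -1.07 and -0.33. The count lower at an unadjusted p, 12, was 5 with 60% of probe sets filtered out as dim and 5 with the mean of all probe sets of a gene, both of which test fewer of the enzymes, and 7 to 31 with 1 pool left out (7 without control pool 1, 31 without iron-deficient pool 2, where 26.2% of all tested probe sets lay there). The count past the adjusted p, 0, was 1 with 1 probe set per gene. With the pool number as a replicate block it was 9, where 479 probe sets passed in all. In that block fit p followed the size of the difference alone and not a gene's own spread between pools. Gatm and Gamt, at -1.61 and -1.58, had limma p of 0.000609 and 0.000787 there, although their SE in the main fit were 0.32 and 0.8. Fits without a control pool also left out a gene's own spread, and their counts past the adjusted p are not given. The deviations of same-numbered pools correlated at 0.357, but the labels give no pairing beyond the number. The count higher in both pools, 1, was 3 with no filter, 2 after median centring and 1 to 5 with 1 pool left out. The count higher at an unadjusted p, 0, was 1 with no filter and 0 to 1 with 1 pool left out. The difference of Arg2 turned to 0.09 with quantile normalization and 0.11 with median centring, and ran from -0.25 to 0.07 with 1 pool left out. With 1 pool left out, Asl ran from -0.96 to 0.12, Bckdha from -1.27 to 0.21, Mccc1 from -1.0 to 0.14 and Hibadh from -0.89 to 0.24, positive in each case without iron-deficient pool 1. The cause was not tested. Median centring moved the median of all tested probe sets to 0.09, from -0.10. A pool left alone in its diet is assumed to vary like the other diet's pools. Signals near background limit Hgd, Miox, Agxt2 and Dmgdh to bounds.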
